A study of Homo sapiens with 6 samples.

Results

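The mitotic spindle and cytokinesis genes RACGAP1, HMMR, TPX2, PRC1, ANLN, ECT2, ASPM, NUSAP1, GTSE1 and MELK, were followed in RNA of thyroid cancer cells with reduced GDF15. They were taken by symbol, 10 of the 34738 genes in the expression table, and all 10 lay among the 11867 genes with a mean over the 6 libraries of at least 1 FPKM, a level that takes account of how long the transcript is and how many fragments the library has. They had been put together with results of the same contrast known. Their differences between the groups are therefore only described here, and nothing is read from their p-values. Their FPKM in the siGDF15 cells was between 25.6 and 48.0% of that in the control cells. These shares lack the further scaling between libraries (TMM) used for the fold changes below, with which the falls are slightly smaller. PRC1 and HMMR had the lowest remaining share and ECT2 kept the highest. The sum of the 10 levels was 395 ± 4.06 FPKM in NC and 123 ± 8.78 FPKM in siGDF15 (mean ± SD, n = 3 libraries), which left 31.1%.

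The cells were of a human thyroid cancer line, and GDF15, which encodes a secreted cytokine of the TGF-β family, was silenced with an siRNA. The siGDF15 group and the control group, NC, each had 3 libraries of poly(A) RNA. The labels name the line KHM-5M for all 6 libraries, while a figure legend of the study names TPC-1 for the sequencing, and this was not settled here. The control is called a blank control in the deposited design and a negative control siRNA in the study's methods, so an effect of the transfection itself cannot be told apart from that of the silencing if NC received no siRNA. All libraries come from 1 line and 1 silencing treatment. The study lists 1 siRNA sequence against GDF15. Effects of that sequence on other genes therefore cannot be told apart from those of reduced GDF15, whichever control was used. The methods speak of biological replicates, but no label ties a library to a separate culture, so the spread between libraries may be in part technical.

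During mitosis the spindle forms from microtubules that are nucleated at the poles and around the chromosomes, where the GTPase Ran in its GTP form frees spindle factors from importins. After the chromosomes part, overlapping microtubules are bundled into the central spindle, which places a signal for the GTPase RhoA at the cell equator. Active RhoA drives an actin and myosin ring that narrows the cell, and the remaining bridge, the midbody, is then cut. Many genes of this machinery are transcribed mainly in late S, G2 and M phase. Their mRNA is therefore high in dividing cell populations and low in resting ones. In bulk RNA, fewer cells in those phases and less RNA per cell cannot be told apart.

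A short element called the cell cycle genes homology region (CHR) is known from promoters of genes that peak in G2 and M phase. The promoters of the members were searched for it. Promoter letters did not enter their choice, but the members were grouped as mitotic genes, a class in which the element is known. A high share was therefore likely beforehand, and no other mitotic genes were set beside them. RefSeq promoter windows of 300 bases (250 before and 50 after the annotated start, GRCh38.p14) were matched for 8 members, in 9 windows, since ECT2 had 2 overlapping ones. RACGAP1 and TPX2 had no matched window. The letters TTTGAA or TTCGAA on either strand were in 8 of the 9 windows and in 7 of the 8 genes. They were in 16.4% of the 35116 windows of all genes, and in 11.5% of the 12810 windows of tested genes. The 30 bases around a match are shown for each gene because they show how alike or unlike the surroundings are. Capitals mark TTTGAA, or TTCAAA where the element reads on the opposite strand, and each sequence runs 5′ to 3′ along the gene:
HMMR: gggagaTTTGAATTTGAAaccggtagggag
ANLN: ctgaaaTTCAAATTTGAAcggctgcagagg
PRC1: cccgtggcgcggTTTGAAattttgcggggc
GTSE1: ctcggagcccttTTCAAAccgaccaatcgg
NUSAP1: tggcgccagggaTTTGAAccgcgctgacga
ECT2: agagcagcttagttTTTGAAtcggttgtgg
ASPM: cggatgcaatcaTTCAAAtgaagcgccgcc

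In GRCh38.p14 the printed stretches lie at chr5:163460598-163460627 (HMMR, plus strand), chr7:36389830-36389859 (ANLN, plus), chr15:90994538-90994567 (PRC1, minus), chr22:46296832-46296861 (GTSE1, plus), chr15:41332882-41332911 (NUSAP1, plus), chr3:172750746-172750775 (ECT2, plus) and chr1:197146765-197146794 (ASPM, minus). HMMR and ANLN each had a pair of adjoining matches, head to tail in HMMR and in opposite directions in ANLN. In 4 genes a match began between 20 and 26 bases before the start: at -22 in HMMR (with its neighbour at -28), -20 in ANLN (with its neighbour at -26), -20 in PRC1 and -26 in GTSE1. In NUSAP1 it began at base 14 after the start, and in ASPM at -113. ECT2 had matches in both of its windows, among them at -115 and at 35 from the upstream start. The MELK window held none of the letters searched. The CCAAT box, searched as CCAAT on both strands, was in 6 of the 9 windows (34.6% of all windows and 34.9% of those of tested genes). In GTSE1 it lies next to the CHR letters, in lower case at the right of the printed stretch. For E2F the letters TTCCCGC were searched on both strands, as were TTCGCGC and with them TTGGCGC and finally TTGCCGC, and at least 1 of these was in 3 of the 9 windows, those of ASPM, ECT2 and NUSAP1, beside 13.0% of all windows and 19.7% of those of tested genes. A match of letters is a description and does not show that a factor binds there. The annotated RefSeq start need not be the start used in these cells.

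GDF15 itself was at 22.4, 19.3 and 23.1 FPKM in NC and at 10.8, 10.5 and 10.7 FPKM in siGDF15, a log2 fold change of -0.92 ± 0.079 (SE, edgeR quasi-likelihood test, adjusted p = 2.4e-05). Total counts were between 67569576 and 68025163 in NC and between 51738814 and 67793417 in siGDF15, where replicate 2 was the lowest. The deposited counts were worked out from coverage and 1 read pair came to about 4 counts, so even the lowest member value, 830 counts for HMMR in siGDF15 replicate 2, stood far above the floor of 12 counts. Mitochondrially encoded genes held 6.39 to 6.78% of counts in NC and 8.53 to 9.17% in siGDF15, and their part in the results was not tested. Of 10 thyroid markers 3 reached a mean of 1 FPKM, PAX8, FOXE1 and HHEX. TG was at most 0.219 FPKM, NKX2-1, SLC5A5, DUOX2 and DIO1 were all under 0.1, and TSHR was not among the genes in the expression table. The summed markers were 61.5 to 71.9 FPKM in NC and 83.0 to 86.3 in siGDF15 for thyroid. PAX8 alone made up most of that sum (54.3 to 64.9 and 77.5 to 80.4 FPKM), while HHEX was at 4.01 to 4.56 and 2.65 to 2.68 and FOXE1 at 2.53 to 2.93 and 2.65 to 2.94, with overlap. The sums were 108 to 160 and 136 to 147 for epithelium, and 31.2 to 40.6 and 32.8 to 38.2 for fibroblasts. KRT18 made up most of the epithelial sum (78.1 to 109 and 91.6 to 97.7 FPKM). KRT8 was at most 21.3, KRT19 at most 15.2, KRT7 at most 11.3, EPCAM at most 2.41 and CDH1 at most 1.44 FPKM. All 6 epithelial and 6 of 7 fibroblast markers reached a mean of 1 FPKM. Of the immune markers only CD68 reached 1 FPKM, and PTPRC, which marks all blood leukocytes, was at most 0.00685 FPKM.

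The order of the 10 genes by level was nearly the same in both groups, at different heights. In NC it ran from TPX2 over ANLN, ECT2, NUSAP1, RACGAP1, PRC1, MELK, GTSE1 and ASPM down to HMMR, with 5.85-fold between the highest and the lowest mean. The ranges of neighbours overlapped only for PRC1 and MELK. In siGDF15 ECT2 came before ANLN and MELK before PRC1, and the highest and lowest means were 6.77-fold apart. The ranges there overlapped for TPX2 and ECT2, for ECT2 and ANLN, and for MELK and PRC1, although TPX2 was above ECT2 and ECT2 above ANLN in each of the 3 libraries. Among all tested genes TPX2 moved from percentile 97.2 of level in NC to percentile 88.3 in siGDF15, RACGAP1 from 92.0 to 70.7 and HMMR from 76.6 to 37.1. The lowest value of any member in any library was 3.65 FPKM, for HMMR. The plot of levels by library shows the NC and siGDF15 points of each gene apart.

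**Figure D1:**
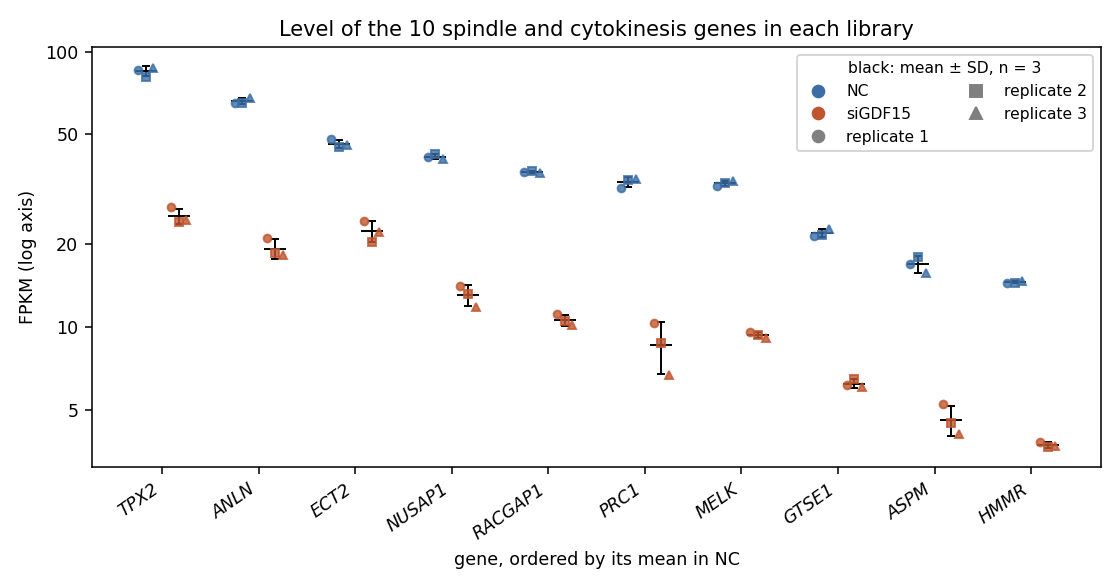
FPKM (log axis) of the 10 genes in the 3 NC and 3 siGDF15 libraries, ordered by the NC mean. Marker shapes stand for the replicate, and black bars give mean ± SD (n = 3). In each gene the 3 siGDF15 points lie below the 3 NC points, with the narrowest gap on this axis for ECT2 and the widest siGDF15 spread for PRC1.

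The first 4 members build the central spindle and the cleavage furrow. RACGAP1 (ENSG00000161800, GRCh38 chr12:49976923-50025518, minus strand) is a GTPase-activating protein that forms the centralspindlin complex with the kinesin KIF23. It was at 36.5, 36.8 and 36.1 FPKM in NC and at 11.1, 10.5 and 10.1 FPKM in siGDF15, so the NC libraries lay within 1 FPKM of each other and the groups did not overlap. The log2 fold change, fitted on counts, was -1.68 ± 0.048 (SE). ANLN (ENSG00000011426, chr7:36389821-36453791, plus strand) encodes anillin, a scaffold that ties actin, myosin, septins and RhoA together at the furrow. Its FPKM values were 65.0, 65.2 and 68.1 in NC against 21.0, 18.5 and 18.2 in siGDF15, a log2 fold change of -1.67 ± 0.062. It was the member with the second highest level in NC and the third highest in siGDF15.

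PRC1 (ENSG00000198901, chr15:90966040-90994602, minus strand) cross-links antiparallel microtubules in the central spindle and brings the kinesin KIF4A there. Its FPKM values were 32.1, 34.2 and 34.5 in NC against 10.3, 8.74 and 6.69 in siGDF15, with a log2 fold change of -1.86 ± 0.136. This was the lowest fold change of the members and also the one with the largest SE. The siGDF15 libraries differed among themselves more than in any other member (coefficient of variation, CV, 21.3%, percentile 95.8 of tested genes). Where these counts were assigned is described further on. ECT2 (ENSG00000114346, chr3:172750682-172821474, plus strand) is the exchange factor that loads RhoA with GTP after it has been recruited by RACGAP1. Its FPKM values were 48.0, 45.1 and 45.8 in NC against 24.3, 20.4 and 22.0 in siGDF15. The groups did not overlap here either, but the log2 fold change of -0.95 ± 0.063 was the smallest in size. The FPKM means, which carry no TMM scaling, were 2.08-fold apart, a slightly larger difference than that of the fit.

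The other 4 structural members act mainly in spindle assembly. TPX2 (ENSG00000088325, chr20:31739271-31801805, plus strand), which activates the kinase Aurora A and promotes microtubule nucleation around chromosomes, was the most abundant member in both groups. Its FPKM values were 86.0, 80.7 and 87.5 in NC against 27.1, 24.1 and 24.4 in siGDF15, a log2 fold change of -1.64 ± 0.060. HMMR (ENSG00000072571, chr5:163460203-163491941, plus strand), a microtubule-binding protein that also binds the polysaccharide hyaluronan, was the least abundant. It was at 14.4, 14.5 and 14.6 FPKM in NC and at 3.82, 3.65 and 3.71 in siGDF15, a log2 fold change of -1.85 ± 0.055. Its libraries were the tightest of the 10 members in both groups (CV 0.846% in NC and 2.36% in siGDF15).

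ASPM (ENSG00000066279, chr1:197084121-197146694, minus strand) holds microtubule minus ends at the spindle poles, and loss of it in humans causes microcephaly. Its FPKM values were 16.9, 18.0 and 15.7 in NC against 5.22, 4.47 and 4.08 in siGDF15, a log2 fold change of -1.77 ± 0.090. It had the widest spread of the members in NC (CV 6.88%) and the second widest, after PRC1, in siGDF15 (12.6%). NUSAP1 (ENSG00000137804, chr15:41320794-41381050, plus strand) bundles microtubules near the chromosomes. It was at 41.2, 42.3 and 40.6 FPKM in NC and at 14.1, 13.2 and 11.8 in siGDF15, a log2 fold change of -1.56 ± 0.067. After ECT2 this was the smallest change of the 10.

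The last pair are regulators. GTSE1 (ENSG00000075218, chr22:46296870-46330810, plus strand) binds growing microtubules, restrains the depolymerase KIF2C and is also known for lowering p53. Its FPKM values were 21.4, 21.6 and 22.7 in NC against 6.15, 6.47 and 6.05 in siGDF15, a log2 fold change of -1.71 ± 0.058. MELK (ENSG00000165304, chr9:36572862-36677683, plus strand) encodes a kinase whose level peaks in mitosis. It was at 32.5, 33.2 and 33.9 FPKM in NC and at 9.59, 9.31 and 9.12 in siGDF15, a log2 fold change of -1.72 ± 0.049. The siGDF15 libraries of both regulators were close together, with a CV of 3.55% for GTSE1 and 2.50% for MELK.

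Across the 10 the median log2 fold change was -1.69, beside 0.0026 over all tested genes. By role it was -1.68 for the 4 genes of the central spindle and furrow, -1.71 for the 4 of spindle assembly and -1.72 for the 2 regulators. At an edgeR adjusted p under 0.05, 10 of 10 members were called lower, where 31.4% of all tested genes were. With the log2 fold change also required to reach 1 in size, 9 were called lower, all but ECT2, where 4.78% of tested genes were. The 3 siGDF15 libraries lay below the 3 NC libraries in 10 of 10, where 42.8% of tested genes showed that. Nothing is read from these counts, since the members were chosen from the same contrast. Ranked from the lowest fold change upward among tested genes, PRC1 was 59th, HMMR 62nd, ASPM 91st, MELK 116th, GTSE1 122nd, RACGAP1 129th, ANLN 131st, TPX2 145th and NUSAP1 182nd, while ECT2 was 636th.

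Without ECT2 the remaining 9 genes kept between 25.6 and 31.5% of their NC level, and their log2 fold changes lay between -1.86 and -1.56. ECT2 kept 52.4, 44.0 and 47.6% of its NC mean in siGDF15 replicates 1 to 3. Its share of the summed level of the 10 was 11.5 to 12.2% in NC and 17.1 to 19.0% in siGDF15, and in no other member did the 3 siGDF15 shares all lie above the 3 NC shares. The log2 fold change of ECT2 is close to the threshold of -1, and it passed it under 5 of 14 other settings. These were library totals without TMM (-1.06), limma with a pseudocount of 0.1 (-1.06) or 1 (-1.03), no filter (-1.01) and the fit without siGDF15 replicate 1 (-1.01).

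**Figure D2:**
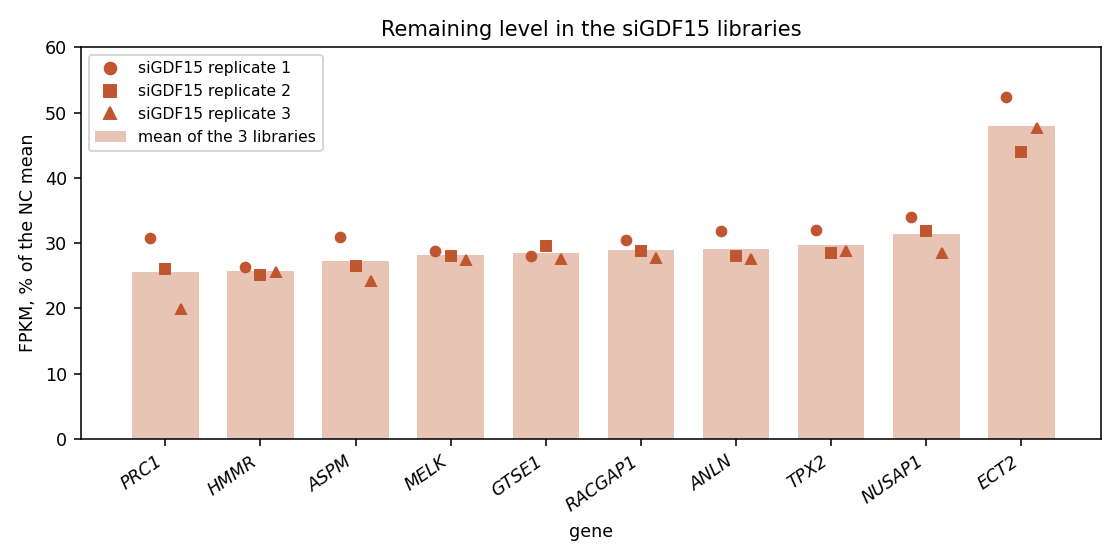
FPKM of each siGDF15 library as a percentage of the gene's NC mean (points, by replicate) with the mean of the 3 libraries (bars, axis from 0). The 9 genes other than ECT2 stand between 25.6 and 31.5% and ECT2 at 48.0%, and the PRC1 libraries spread from 30.8 down to 19.9%.

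The siGDF15 libraries were not equally low. Replicate 1 was the highest of its group in 9 of the 10 members, all but GTSE1, where 40.5% of all tested genes had it highest. Replicate 3 was the lowest in 7 of the 10, where 26.0% of tested genes had it lowest. The order from replicate 1 down to 3 is not particular to the members. Among other genes that fell, KIF11 and CDCA8 had it, while AURKA and KIF4A did not. All members share the same libraries, so these counts are not of separate observations. Averaged over the members, log2 counts scaled to the library total times its TMM factor, relative to the NC mean, were -1.55, -1.65 and -1.74 in siGDF15 replicates 1 to 3, and the NC libraries were all within 0.016 of 0. The median CV of the members was 7.36% in siGDF15 and 2.96% in NC, beside 4.84 and 6.82% over all tested genes. GDF15 itself lay between 10.5 and 10.8 FPKM in the 3 siGDF15 libraries.

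The spread of PRC1 goes together with how counts were divided at its locus. On the same strand the annotation has ENSG00000284946 (GRCh38 chr15:90966190-91022566), which has no symbol in the table. In GENCODE release 29, 12 of its 38 exons are identical to PRC1 exons, and 3181 of the 5525 exonic bases of PRC1 (57.6%) lie in it as well. Reads in those bases can be given to either gene. In CPM, here counts scaled to the library total without TMM, PRC1 was at 197, 208 and 211 in NC and at 63.3, 53.9 and 40.9 in siGDF15. ENSG00000284946 was at 81.6, 68.4 and 70.7 in NC and at 27.2, 27.7 and 35.3 in siGDF15, where the library with the lowest PRC1 had the highest value. It took 29.3, 24.7 and 25.1% of the counts of both genes in NC and 30.0, 34.0 and 46.3% in siGDF15.

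Summed over both genes the CPM values were 278, 277 and 282 in NC against 90.5, 81.6 and 76.1 in siGDF15. The CV of the sum in siGDF15 was 8.74%, compared with 21.4% for PRC1 alone on the same scale. The log2 fold change was -1.65 ± 0.064 (SE) for the sum, -1.86 ± 0.136 for PRC1 alone and -1.19 ± 0.113 for ENSG00000284946 alone. The fit of the sum was added after the data were seen. With it PRC1 moves from the lowest fold change of the 10 to a place beside TPX2, ANLN and RACGAP1, and HMMR becomes the lowest. The level and fold change of PRC1 alone are therefore uncertain in this table.

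**Figure D3:**
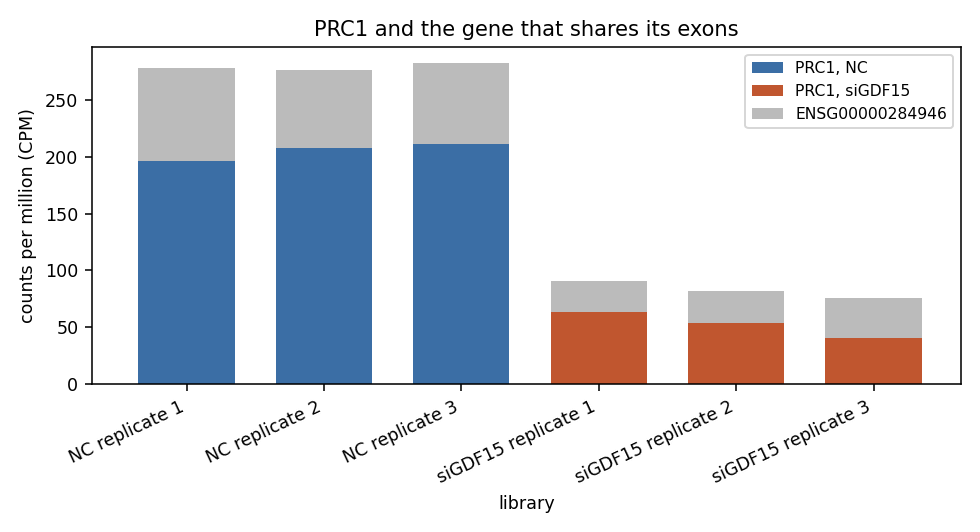
CPM (axis from 0) assigned to PRC1 (coloured) and to the overlapping ENSG00000284946 (grey, stacked on top) in each of the 6 libraries. The stacked totals are 278, 277 and 282 in NC and 90.5, 81.6 and 76.1 in siGDF15, while the PRC1 part alone falls to 40.9 in siGDF15 replicate 3.

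Other genes that overlap members or share a name stem held few counts or can be set beside their partner. OIP5, on the opposite strand of NUSAP1, was at 16.7, 13.7 and 14.5 FPKM in NC and at 4.29, 4.35 and 3.73 in siGDF15. The libraries were made with dUTP marking, but the strand setting of the counting is not given in the sources used here, so reads of NUSAP1 and OIP5 in shared stretches may not be told apart. KIAA0895, opposite to ANLN, was at 2.05, 2.45 and 2.00 FPKM in NC and at 2.18, 2.37 and 2.21 in siGDF15, with overlapping groups. HMMR-AS1 had at most 4 counts in any library, PRC1-AS1 17 to 95, the pseudogene RACGAP1P1 at most 2 and ECT2L at most 27.

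Known partners were compared as ratios of FPKM in each library, as a description with no test. RACGAP1 and KIF23 form centralspindlin in equal amounts, and their ratio was 1.70 ± 0.0654 in NC and 1.64 ± 0.0776 in siGDF15 with overlapping libraries. KIF23 fell with a log2 fold change of -1.62 ± 0.069 (edgeR adjusted p = 8.1e-07). TPX2 to AURKA, the gene of Aurora A, was at 1.22 ± 0.0596 in NC and 1.18 ± 0.0770 in siGDF15, and AURKA fell by 1.60 ± 0.074 on the log2 scale (adjusted p = 1.1e-06). In both pairs the member and its partner kept their proportion within the spread between libraries.

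For ECT2 and RACGAP1, which bind each other, the proportion differed. The ratio of ECT2 to RACGAP1 was 1.31, 1.23 and 1.27 in NC and 2.19, 1.94 and 2.18 in siGDF15, so the groups did not overlap. ANLN to ECT2 went the other way, from 1.35, 1.44 and 1.49 to 0.866, 0.906 and 0.827, and this pair was added after the values were seen. PRC1 to KIF4A was 2.14 ± 0.0705 in NC and 1.67 ± 0.179 in siGDF15, and this ratio contains the uncertain PRC1 count. GTSE1 to TACC3, both of which bind spindle microtubules, was 1.07 ± 0.0355 and 0.922 ± 0.0279, without overlap. KIF4A and TACC3 both fell (log2 fold changes of -1.51 ± 0.105 and -1.49 ± 0.061, edgeR adjusted p = 7.5e-06 and 7.3e-07).

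Of the ratios shown here, those with the partners RHOA and DYNLL1 moved most. RHOA, the GTPase that ECT2 activates and that also shapes the actin of cells in interphase, was at 95.4, 99.0 and 98.0 FPKM in NC and at 102, 95.5 and 97.6 in siGDF15. Its libraries overlapped, and the log2 fold change of 0.12 ± 0.042 (edgeR adjusted p = 0.036) was called under 5 of 15 settings. The ratio of ANLN to RHOA was 0.678 ± 0.0181 in NC and 0.195 ± 0.00956 in siGDF15. DYNLL1, a light chain of dynein that HMMR binds, had a log2 fold change of -0.52 ± 0.051 (adjusted p = 4.9e-05), and HMMR to DYNLL1 was 0.275 ± 0.0113 and 0.109 ± 0.00349.

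**Figure D4:**
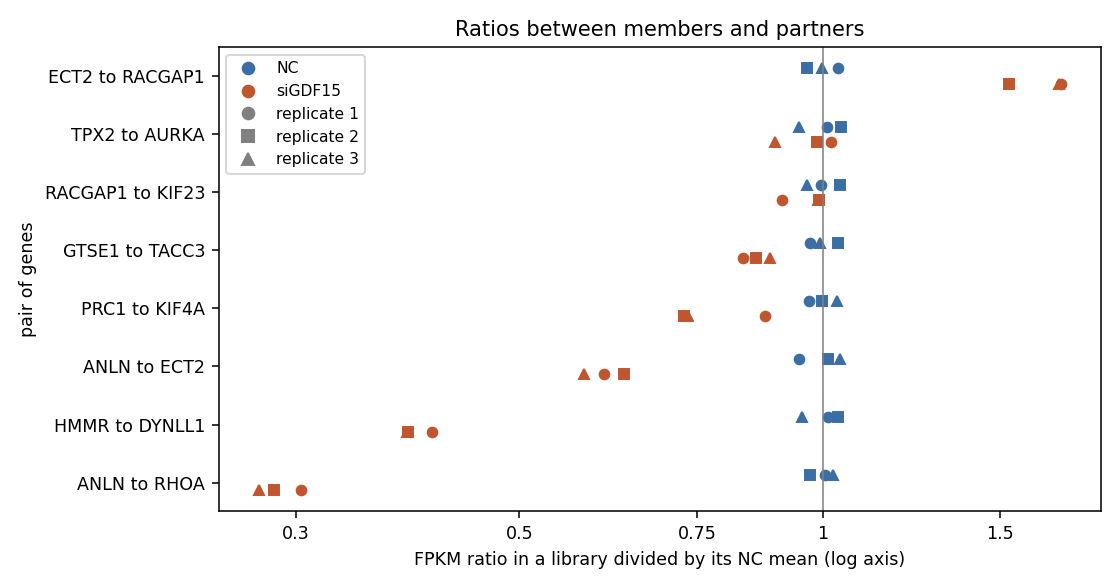
Ratio of the FPKM of 2 genes in each library divided by the mean of that ratio in NC (log axis), for 8 pairs. The siGDF15 points overlap the NC points for RACGAP1 to KIF23 and TPX2 to AURKA, right of them for ECT2 to RACGAP1, and left of them for the other 5 pairs.

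The genes outside the 10 whose pattern was most like the mean of the members were found by the root mean square (RMS) difference over the 6 libraries of the TMM-scaled log2 counts relative to the NC mean, among 11867 genes. They were DLGAP5 (RMS 0.0259), HMGB2 (0.0273), NCAPG2 (0.0311), ATAD2 (0.0328) and KIF23 (0.0350). DLGAP5 encodes a protein of the spindle fibres near the chromosomes, HMGB2 a chromatin protein and NCAPG2 a subunit of condensin II. DLGAP5 was at 26.0, 25.7 and 25.0 FPKM in NC and at 8.34, 7.41 and 7.01 in siGDF15. Of the members RACGAP1 (0.0336), ANLN (0.0339) and TPX2 (0.0444) lay nearest to their own mean, and ASPM (0.118), HMMR (0.152), PRC1 (0.212) and ECT2 (0.492) farthest. All these points share the same 6 libraries.

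The other genes of the machinery, from lists written for this description with earlier results known, did not move as a block. Of 46 other cytokinesis genes, 19 were called lower, 15 higher and 12 neither, so 41.3% were lower beside 31.4% of tested genes, and 32.6% were higher beside 30% of tested genes. Past 1 in size on the log2 scale, 13 were lower and 1 higher (28.3 and 2.17%, beside 4.78 and 3.03% of tested genes). The median was -0.05. With library totals without TMM the split was 24 lower and 9 higher. All tested genes then moved from 3721 lower and 3565 higher to 4679 and 2701. The median joins unlike parts of the list, a division that was not tested. Its kinesins and the genes AURKB, INCENP, BIRC5 and CDCA8 all fell past 1, from -1.95 for CDCA8 to -1.30 for BIRC5. CIT, ARHGAP11A, DIAPH3, PLK1 and CEP55 fell past 1 as well, and MYH10 was called lower without reaching 1 in size. No actin, septin or CHMP gene of the list fell past 1, and neither did DIAPH1, DIAPH2, ROCK1 or ROCK2. Among those that fell CEP55, which brings the membrane-cutting machinery to the midbody, had a log2 fold change of -1.83 ± 0.060 (edgeR adjusted p = 4.3e-07), and INCENP, the scaffold of the Aurora B complex, had -1.53 ± 0.050 (adjusted p = 4.3e-07).

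Of the genes called higher MYL9, a light chain of contractile myosin, rose from 22.6 ± 1.89 to 44.9 ± 3.75 FPKM (n = 3 in each group), a log2 fold change of 1.10 ± 0.087 (edgeR adjusted p = 1.5e-05). CHMP4B and CHMP2A, subunits of the ESCRT-III filament that cuts membranes at the midbody and at endosomes, had log2 fold changes of 0.44 ± 0.043 (adjusted p = 4.7e-05) and 0.57 ± 0.069 (adjusted p = 1.6e-04). In this list CHMP4B and CHMP2A rose while CEP55, which acts at the same place, fell.

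Of 49 other spindle assembly genes 40 were called lower and 6 higher, with 19 and 0 of them past a log2 fold change of 1 in size and a median of -0.81. The 81.6% called lower and 12.2% called higher stand beside 31.4 and 30% of tested genes. Past 1 in size, 38.8% were lower and 0% higher, beside 4.78 and 3.03% of tested genes. KIFC1, a kinesin that moves to microtubule minus ends, fell by 1.82 ± 0.053 on the log2 scale (edgeR adjusted p = 3.5e-07), from 39.6 ± 0.773 to 10.5 ± 0.597 FPKM. SPAG5, which holds spindle poles together, fell by 1.88 ± 0.067 (adjusted p = 4.9e-07). KIF2C, the depolymerase that GTSE1 restrains, fell by 1.63 ± 0.057 (adjusted p = 4.7e-07), close to GTSE1 itself. The heavy chain of dynein, DYNC1H1 (log2 fold change 0.51 ± 0.057, adjusted p = 1.1e-04), the dynactin subunit DCTN1 (0.32 ± 0.048, adjusted p = 5.1e-04) and the clathrin heavy chain CLTC (0.27 ± 0.039, adjusted p = 4.3e-04), all of which also carry cargo in interphase, rose.

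Tubulins, of which the microtubules are made, mostly fell. Of 10 tested tubulin genes 6 were called lower and 1 higher, with a median of -0.72. These are 60 and 10%, beside 31.4 and 30% of all tested genes. TUBA1B went from 587 ± 41.6 to 253 ± 10.9 FPKM (n = 3 in each group), a log2 fold change of -1.11 ± 0.064 (edgeR adjusted p = 2.8e-06), and was the only 1 past 1 in size. TUBB had -0.83 ± 0.048 (adjusted p = 3.0e-06) and TUBB3 -0.86 ± 0.055 (adjusted p = 5.0e-06). TUBB2A was the gene called higher, with 0.24 ± 0.081 (adjusted p = 0.029). Its libraries overlapped, however, and it was called under 5 of 15 settings. With library totals the split of the tubulin genes was 7 lower and 0 higher, so the lower count changed as well. Tubulin genes are near-identical in their coding parts, so the division of reads among them is uncertain.

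The Ran and importin genes, of which the importins hold TPX2 and other spindle factors until Ran frees them, had 9 of 13 called lower and 1 higher, with a median of -0.30. These are 69.2 and 7.69%, beside 31.4 and 30% of all tested genes. Scaling to equal medians gave 7 lower and 2 higher, where all tested genes had 3228 lower and 4074 higher. KPNA2, an importin alpha, fell by 1.19 ± 0.059 on the log2 scale (edgeR adjusted p = 1.5e-06), from 57.4 ± 3.42 to 23.5 ± 1.04 FPKM. The Ran-binding protein RANBP1 fell by 1.02 ± 0.066 (adjusted p = 5.2e-06) and the exportin XPO1 by 0.79 ± 0.041 (adjusted p = 1.9e-06). KPNA6, another importin alpha, rose with 0.24 ± 0.043 (adjusted p = 0.0014).

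The APC/C is the ubiquitin ligase that removes several of the member proteins at the end of mitosis. The list of 20 genes holds its core subunits, its activators, the inhibitor FBXO5 and ubiquitin-conjugating enzymes. Of these 12 were called lower and 2 higher (60 and 10%, beside 31.4 and 30% of tested genes), with a median of -0.16. Past a log2 fold change of -1 were 4 (20%, beside 4.78% of tested genes), UBE2C, UBE2S, CDC20 and FBXO5. None of the 4 is a core subunit. The ubiquitin-conjugating enzyme UBE2C fell by 1.78 ± 0.079 on the log2 scale (edgeR adjusted p = 9.1e-07), from 102 ± 4.46 to 27.5 ± 2.87 FPKM. The activator CDC20 fell by 1.41 ± 0.092 (adjusted p = 5.5e-06) and the inhibitor FBXO5 by 1.48 ± 0.065 (adjusted p = 9.1e-07), so an activator and an inhibitor fell side by side. The core subunits ANAPC16 (0.42 ± 0.050, adjusted p = 1.5e-04) and CDC16 (0.27 ± 0.050, adjusted p = 0.0017) rose.

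**Figure D5:**
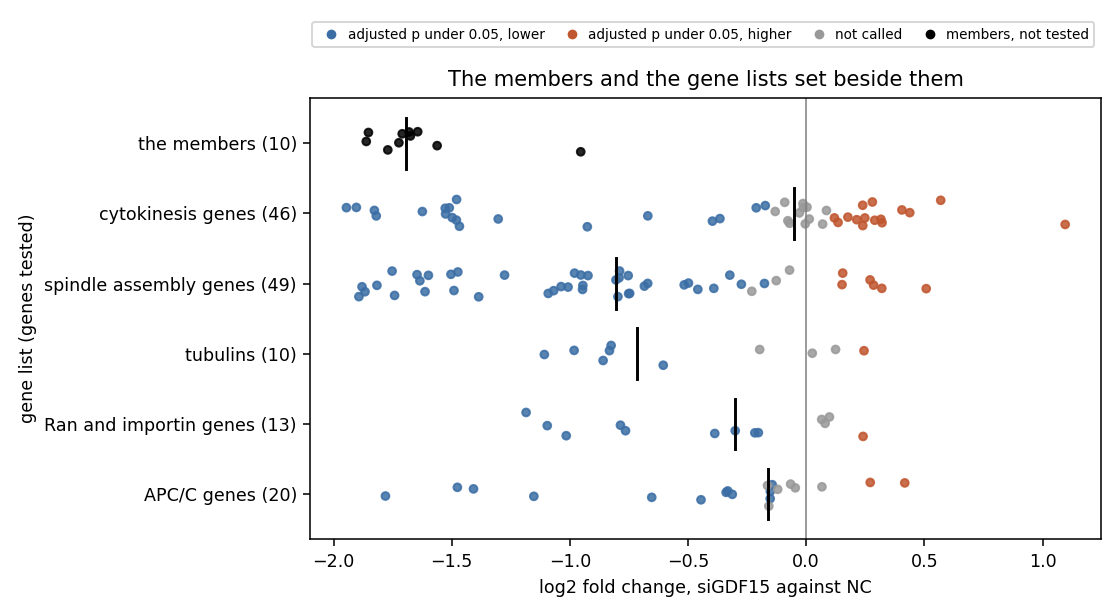
Log2 fold change of siGDF15 against NC for each gene of the 10 members (black) and of the 5 other lists. Blue is lower, orange higher and grey not called at an adjusted p under 0.05. Vertical bars give the median of each list. The members are marked not tested, since they were chosen from this contrast and nothing is read from their calls. The members lie between -1.86 and -0.95, and the medians of the other lists are -0.05, -0.81, -0.72, -0.30 and -0.16 from top to bottom.

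The annotation deposited with the table gave further groups, which were chosen after the data were seen. Only the members were left out of them. A gene can stand under several terms and also in the lists above, so these counts are not separate observations. Of 53 tested genes other than members under mitotic cytokinesis, 21 were called lower and 14 higher, with 14 and 0 past 1 in size and a median of -0.07. Under midbody the counts were 64 lower and 44 higher of 155, under spindle midzone 13 and 4 of 22, and under cleavage furrow 16 and 12 of 39. Under spindle pole 68 were lower and 24 higher of 123, and under mitotic spindle assembly 22 and 5 of 35. Spindle pole, midzone and assembly thus had 55.3 to 62.9% of the other genes called lower. The furrow, midbody and cytokinesis terms had 39.6 to 41.3%, beside 31.4% of tested genes. Past a log2 fold change of 1 this split did not hold. There the lower shares were 36.4% for midzone, 26.4% for cytokinesis, 26.0% for spindle pole and 20% for assembly. They were 14.2% for midbody and 12.8% for furrow, beside 4.78% of tested genes. Contractile ring had 5 other genes, 2 lower and 1 higher. In the KEGG column 2 members had an entry, HMMR under ECM-receptor interaction and GTSE1 under the p53 signaling pathway. None of the 10 was in the cell cycle pathway, which had 115 tested genes, so a count over that pathway leaves out all 10 members.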

How the data were processed

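Poly(A) RNA of 3 NC and 3 siGDF15 libraries was sequenced in read pairs. The submitters' processing notes name fastp, HISAT2, StringTie, edgeR and GRCh38. Versions and the strand setting are not given in the sources used here. The authors deposited expected counts beside FPKM (scaled by transcript length and mapped fragments). The deposited expected counts are whole numbers worked out from coverage and are not a tally of reads, without normalization. Floors (3 read pairs, 12 counts) cover counting error only.

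Counts were fitted in edgeR 4.0.16 (R 4.3.3) with TMM and the quasi-likelihood test, two-sided, for genes whose mean FPKM reached 1, with Benjamini-Hochberg adjustment over 11867 genes. The SE of a fold change came from its F statistic. The script was tested on simulated data. The members and lists were chosen with earlier results of these data known. Named genes were the members, their partners, in each list up to 3 genes per direction with the smallest adjusted p and groups that did not overlap, every called gene in a direction with 5 or fewer, the 5 most alike genes and overlapping genes. Alternatives were a replicate block, DESeq2 1.42.0, totals without TMM, scaling to the same median, 2 other filters, limma 3.58.1 on log2(FPKM + 1) and log2(FPKM + 0.1), and each library left out. A planned ratio and a marker are not reported here. Ratios and motif counts were made in Python 3.11.15 with pandas 2.3.3 and numpy 2.4.6, and plots with matplotlib 3.10.9.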

Additional observations from a re-analysis of the deposited data

How the results depend on the processing

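The members were chosen from this contrast, so their calls are given as a description: 10 were called lower under each of the 15 settings, where 3721 of 11867 tested genes were in the fit reported and 4679 of 11867 with library totals without TMM. The members' median log2 fold change moved to -1.80 with library totals without TMM and to -1.79 with limma and a pseudocount of 0.1, under which all tested genes had a median of -0.0992 and -0.0997. It lay between -1.72 and -1.66 with each library left out. PRC1 was at -2.01 without siGDF15 replicate 1 and at -1.70 without siGDF15 replicate 3. With the replicate block the members' median was -1.70 and PRC1 was at -1.88. The same numbers do not pair the libraries, since deviations from the group means correlated at 0.0276, -0.0753 and 0.0458 for same-numbered libraries and between -0.135 and 0.0891 for all 9 combinations. The block changed 1 count of the lists or all genes by over 1.5 times, tubulin genes called higher, from 1 to 0.

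Genes higher by a log2 of at least 1 were 131 with limma on log2(FPKM + 1), 817 of 19360 with a mean FPKM of at least 0.1 and 800 of 34738 without a filter. Genes lower by that much were 852 and 859 under the same filters. Other cytokinesis genes called higher were 9 with totals, both limma fits and no filter. Tubulin genes called higher were 0 with totals, both limma fits, both filters and the block, and Ran and importin genes called higher were 2 with the same median. The cause of these shifts was not tested, apart from the filters, under which more genes were tested. With each library left out, genes called higher were 3010 to 3664 and lower 3173 to 3755, those past a log2 of 1 were 337 to 432 and 556 to 611, other cytokinesis genes 10 to 15 higher and 17 to 20 lower, spindle assembly genes 4 to 6 and 38 to 41, tubulin genes 0 to 2 and 6 to 7, Ran and importin genes 1 to 2 and 7 to 9, and APC/C genes 2 to 2 and 8 to 13. The tubulin and Ran counts reached 2 without NC replicate 3.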
